A study of Saccharomyces cerevisiae with 10 samples.

Results

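The 31 genes described here encode the enzymes that make ergosterol in baker's yeast, Saccharomyces cerevisiae, together with the enzymes that store sterols as esters and the regulators of the pathway. They were chosen by function, as the genes of the mevalonate and ergosterol pathway, of sterol esterification and of sterol regulation. All 31 had a probe set of their own on the array, 34 probe sets in all, and all 31 passed the filter on dim values, out of 5365 genes tested and 5656 genes with a probe set of their own. The cells were commercial baker's yeast from fed-batch culture, with no strain name, ploidy or genetic change given in the labels. Compressed yeast was laid on aluminium trays in a dry oven and dried in an air stream at 37 degrees, and cells were taken at 0, 1, 2, 4 and 8 h. Poly(A) RNA was labelled and hybridised to Affymetrix Yeast Genome S98 arrays, 2 per time, 10 arrays in all, with the duplicates described as independent. The 0 h yeast had not been dried, and the design holds no undried yeast held at the oven's temperature or for the same hours, so heat, time and loss of water cannot be told apart in any comparison.

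Ergosterol is the main sterol of yeast membranes, where it sets fluidity and permeability together with sphingolipids, and membranes are a main site of damage when yeast is dried and wetted again. The pathway starts from acetyl-CoA, runs through mevalonate to farnesyl diphosphate and squalene, and then closes and trims the sterol ring. Several of its steps consume molecular oxygen, and the zinc cluster factors Upc2 and Ecm22 activate many of its genes when sterols run low.

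The arrays differed in quality. Array medians of the signal intensity ran from 23.6 to 115.4, and the dimmest arrays were replicate 1 of 8 h, at 23.6, and replicate 1 of 2 h, at 28.7. The actin probe sets' 3' over 5' signal, which is higher where RNA is broken or cDNA is short, was 6.44 and 6.64 on these arrays, 5.38 on replicate 1 of 0 h and 2.62 to 3.9 on the others. At each time replicate 1 had the higher ratio, though by little at 4 h. Each array was divided by its median, so every level below is in log2 units above or below the array median, and a loss of all transcripts alike would not show. Fewer cells and less RNA per cell cannot be told apart either. Levels of different genes are not compared, because probe sets differ in affinity. Wherever levels are listed, replicate 1 comes before replicate 2.

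No ergosterol gene passed the threshold, an adjusted p of 0.05 with limma over all genes tested, at any time of drying. In the F test over the 4 dried times against 0 h, 0 of 31 genes passed, where 3.28% of all genes did, and 4 had an unadjusted p under 0.05, where 16.2% of all genes did. The 4 were ERG5 (adjusted p = 0.189), ERG29 (adjusted p = 0.206), MVD1 (adjusted p = 0.247) and IDI1 (adjusted p = 0.251). Member levels differed in how far they ranged. The distance from the lowest to the highest of the 10 arrays ran from 0.43 log2 units for ERG24 to 2.25 for UPC2, whose probe set was dim. The mean over the pair of arrays was lowest at 2 h for 16 of the 31 genes, where 26.7% of all genes had their lowest mean, and highest at 0 h for 12, where 19.3% of all genes had their highest.

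**Figure D1:**
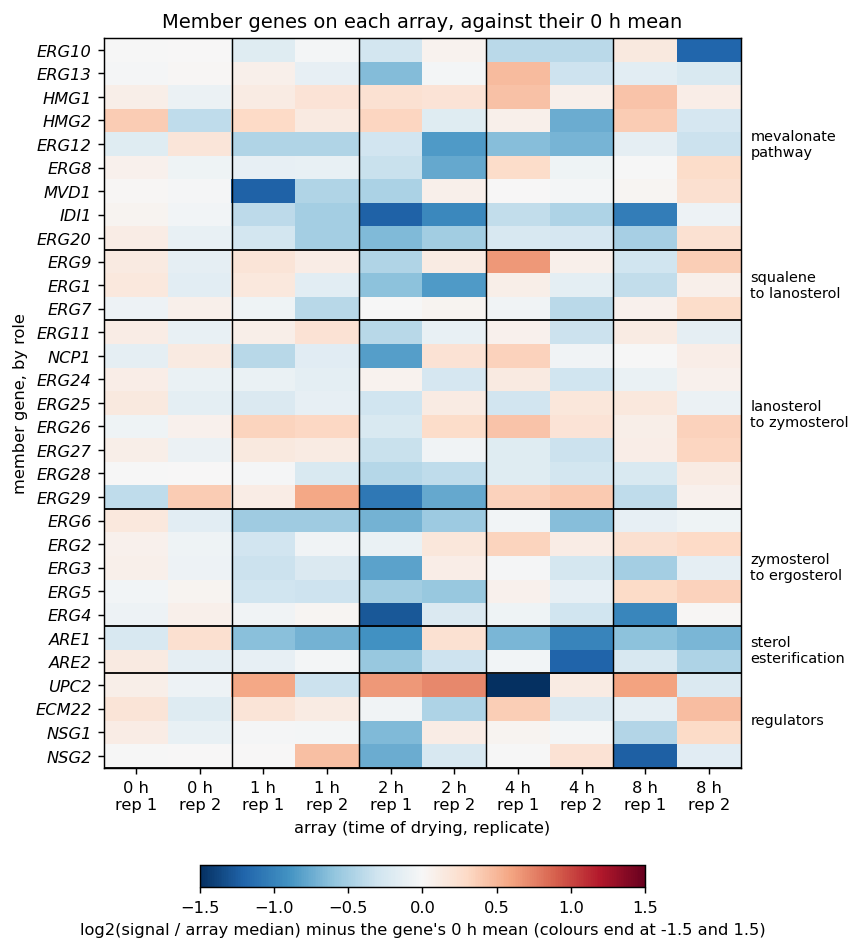
Level of each of the 31 member genes (rows, ordered by role) on each of the 10 arrays (columns), as log2 signal over the array median minus the gene's mean at 0 h; blue is lower and red is higher. Most cells are pale, replicate 1 of 2 h is mostly blue, and 4 h replicate 1 of UPC2 lies at the floor and beyond the end of the colour scale.

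At the start of the mevalonate branch, ERG10 and ERG13, which make acetoacetyl-CoA and HMG-CoA, gave adjusted p values of 0.69 or more in each comparison with 0 h. ERG10 levels were 4.42 and 4.44 at 0 h and 4.02 and 4.02 at 4 h, and at 8 h its arrays parted, with 4.58 on the dim replicate 1 and 3.24 on replicate 2. ERG13 ranged from 1.56 on replicate 1 of 2 h to 2.68 on replicate 1 of 4 h. The next step, HMG-CoA reductase, is the rate-limiting step of the pathway and is encoded by the paralogs HMG1 and HMG2.

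HMG1 stood at 4.60 and 4.41 at 0 h, 4.63 and 4.71 at 1 h, 4.74 and 4.71 at 2 h, 4.95 and 4.58 at 4 h and 4.94 and 4.61 at 8 h. The pairs of 1, 2 and 8 h lay above both 0 h arrays, by little, while the 4 h pair overlapped them, and the change was 0.26 ± 0.27 log2 units at 8 h (SE, n = 2 arrays per time, adjusted p = 0.844, 95% interval -0.30 to 0.83). HMG2, the form whose protein is degraded when sterol intermediates build up, stood at 4.07 and 3.32 at 0 h, 3.99 and 3.84 at 1 h, 4.02 and 3.51 at 2 h, 3.78 and 2.95 at 4 h and 4.08 and 3.44 at 8 h. Replicate 1 was higher than replicate 2 at each time and every dried pair overlapped the 0 h pair, and its change at 4 h was -0.33 ± 0.35 (adjusted p = 0.838).

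Mevalonate is then phosphorylated by ERG12 and ERG8 and decarboxylated by MVD1 to isopentenyl diphosphate, the building block of all isoprenoids. ERG12, mevalonate kinase, had 4 probe sets, and the brightest stood at -0.52 and -0.16 at 0 h, -0.79 and -0.80 at 1 h, -0.63 and -1.19 at 2 h, -0.99 and -1.05 at 4 h and -0.48 and -0.66 at 8 h. Its change at 4 h was -0.67 ± 0.39 (adjusted p = 0.595), whereas the other 3 probe sets gave 1.04, 0.38 and 0.60 at 4 h, so the direction for this gene is not settled. MVD1 stood at 2.44 and 2.41 at 0 h, 1.22 and 1.98 at 1 h, 1.95 and 2.50 at 2 h, 2.44 and 2.39 at 4 h and 2.46 and 2.67 at 8 h. Both 1 h arrays of MVD1 lay below both 0 h arrays and its levels at 4 and 8 h were close to those at 0 h.

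The change of MVD1 at 1 h, -0.83 ± 0.28 (adjusted p = 0.172, 95% interval -1.43 to -0.23), was the largest of any member at that time and 1.78-fold in size. It passed with array weights (adjusted p = 0.0371) and when arrays of 0 and 1 h alone were fitted (adjusted p = 0.0273), with a range of 0.0273 to 1 over 23 alternatives. In both of these settings the change stayed at -0.83 and the SE fell, to 0.238 and 0.233, so these passes are not separate support. Without replicates 1 and 2 of 1 h the change was -0.45 and -1.21.

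IDI1, isopentenyl diphosphate isomerase, which makes the second building block of the pathway, showed the largest difference of any member from 0 h. Its levels were 2.06 and 1.99 at 0 h, 1.64 and 1.51 at 1 h, 0.81 and 1.06 at 2 h, 1.66 and 1.57 at 4 h and 0.99 and 1.94 at 8 h. Every dried pair of IDI1 lay below both 0 h arrays, with the lowest pair at 2 h, and only the 8 h arrays stood far apart. At 2 h the change was -1.09 ± 0.29 (adjusted p = 0.0877, 95% interval -1.71 to -0.47), which is 2.12-fold in size. The other times gave smaller changes, -0.45 ± 0.29 at 1 h, -0.41 ± 0.29 for 4 h and -0.56 ± 0.29 for 8 h.

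The 2 h difference of IDI1 had the smallest adjusted p of any member against 0 h. It passed without replicate 1 of 8 h (adjusted p = 0.0169) and without replicate 2 of 8 h (adjusted p = 0.0172). The 8 h arrays do not enter this change, which stayed at -1.09. Leaving either out took the wide 8 h pair out of the spread, and the SE fell to 0.224, so these passes are not separate support. Without both dimmest arrays, a setting chosen after the data were seen, 1 array was left at 2 h and the change was -0.96. Without replicate 1 of 2 h the change was -0.96 (adjusted p = 0.245). Over 23 alternatives its adjusted p ran from 0.0169 to 0.904 and its change from -1.71, without scaling, to -0.96. The enzymes around IDI1 showed smaller differences at 2 h. MVD1, just before it, gave -0.20 ± 0.28 (adjusted p = 0.830), and its 2 h pair overlapped the 0 h pair. ERG8, phosphomevalonate kinase, gave -0.55 ± 0.25 (adjusted p = 0.370), and ERG20, farnesyl diphosphate synthase, just after IDI1, gave -0.59 ± 0.27 (adjusted p = 0.360), each with both 2 h arrays below both 0 h arrays.

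Squalene synthase ERG9 commits farnesyl diphosphate to sterols. Its levels were 2.95 and 2.67 at 0 h, 3.01 and 2.92 at 1 h, 2.36 and 2.93 at 2 h, 3.46 and 2.89 at 4 h and 2.51 and 3.17 at 8 h, and every dried pair overlapped the 0 h pair. ERG1, squalene epoxidase, the first oxygen-using step and the target of terbinafine, stood at 1.73 and 1.42 at 0 h, 1.73 and 1.41 at 1 h, 0.96 and 0.72 at 2 h, 1.66 and 1.43 at 4 h and 1.20 and 1.65 at 8 h. The 2 h arrays of ERG1 were the lowest of the 10, while the 1 h and 4 h pairs nearly coincided with the 0 h pair. Its change at 2 h was -0.73 ± 0.26 (adjusted p = 0.214, 95% interval -1.29 to -0.17). Lanosterol synthase ERG7 ranged from 0.61 on replicate 2 of 1 h to 1.30 on replicate 2 of 8 h.

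Among the enzymes that take lanosterol to zymosterol, ERG11, the lanosterol demethylase that azole drugs inhibit, was close to level. It stood at 5.29 and 5.07 at 0 h, 5.27 and 5.40 at 1 h, 4.77 and 5.07 at 2 h, 5.25 and 4.86 at 4 h and 5.30 and 5.05 at 8 h. No dried pair of ERG11 was separated from the 0 h pair, and its change at 8 h was -0.01 ± 0.28 (adjusted p = 0.998, 95% interval -0.61 to 0.60). NCP1, the reductase that passes electrons to ERG11, ranged from 2.79 on replicate 1 of 2 h to 3.97 on replicate 1 of 4 h. ERG24, sterol reductase, varied by 0.43 log2 units over all arrays, and ERG25, the methyl oxidase that also uses oxygen, by 0.46, the narrowest ranges of the 31 genes.

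ERG26, ERG27 and ERG28 form the rest of the demethylation complex, as dehydrogenase, ketoreductase and scaffold. ERG27 stood at 2.81 and 2.63 at 0 h, 2.86 and 2.84 at 1 h, 2.39 and 2.67 at 2 h, 2.54 and 2.40 at 4 h and 2.82 and 3.04 at 8 h. Its lowest levels were thus at 2 and 4 h, and its change from 4 to 8 h was 0.46 ± 0.23 (adjusted p = 0.676). ERG26 ranged from 1.02 to 1.69 and ERG28 from 3.0 to 3.54, ERG26 with both 1 h, both 4 h and both 8 h arrays above both 0 h arrays.

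ERG29, an essential endoplasmic reticulum protein that acts at the methyl oxidation step, had the sharpest swing between neighbouring times among the enzymes. It stood at -0.61 and 0.16 at 0 h, -0.11 and 0.35 at 1 h, -1.29 and -1.0 at 2 h, 0.12 and 0.17 at 4 h and -0.61 and -0.16 at 8 h. Both 2 h arrays lay below all 8 others. Its change from 1 to 2 h was -1.27 ± 0.37 (adjusted p = 0.102) and from 2 to 4 h 1.29 ± 0.37 (adjusted p = 0.508), 2 comparisons that share the 2 h arrays. Its probe set signal was near the array median, and without detection calls its part above background is not known.

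The late enzymes, which turn zymosterol into ergosterol, are ERG6, ERG2, ERG3, ERG5 and ERG4. ERG6, the sterol methyltransferase, stood at 3.79 and 3.47 at 0 h, 3.10 and 3.10 at 1 h, 2.93 and 3.09 at 2 h, 3.60 and 2.99 at 4 h and 3.51 and 3.57 at 8 h. Its 1 h and 2 h pairs both lay below the 0 h pair and its 8 h pair lay within it. The change was -0.54 ± 0.26 at 1 h (adjusted p = 0.376) and -0.62 ± 0.26 at 2 h (adjusted p = 0.306). ERG5, the oxygen-using desaturase of the side chain, had both 1 h and both 2 h arrays below, and both 8 h arrays above, both 0 h arrays, with changes of -0.30 ± 0.22, -0.54 ± 0.22 and 0.32 ± 0.22.

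ERG3, the other late desaturase, stood at 4.61 and 4.47 at 0 h, 4.21 and 4.32 at 1 h, 3.73 and 4.64 at 2 h, 4.52 and 4.28 at 4 h and 4.03 and 4.41 at 8 h. ERG4, the last enzyme of the pathway, stood at 3.17 and 3.32 at 0 h, 3.19 and 3.27 at 1 h, 1.97 and 3.03 at 2 h, 3.17 and 2.94 at 4 h and 2.27 and 3.26 at 8 h. For both genes the lowest values fell on the dim replicate 1 of 2 h and of 8 h. The change of ERG4 at 2 h was -0.74 ± 0.35 (adjusted p = 0.385), with 1.97 on replicate 1 and 3.03, nearer to the 0 h pair, on replicate 2. The sterol isomerase ERG2 ranged from 4.01 on replicate 1 of 1 h to 4.63 on replicate 1 of 4 h.

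**Figure D2:**
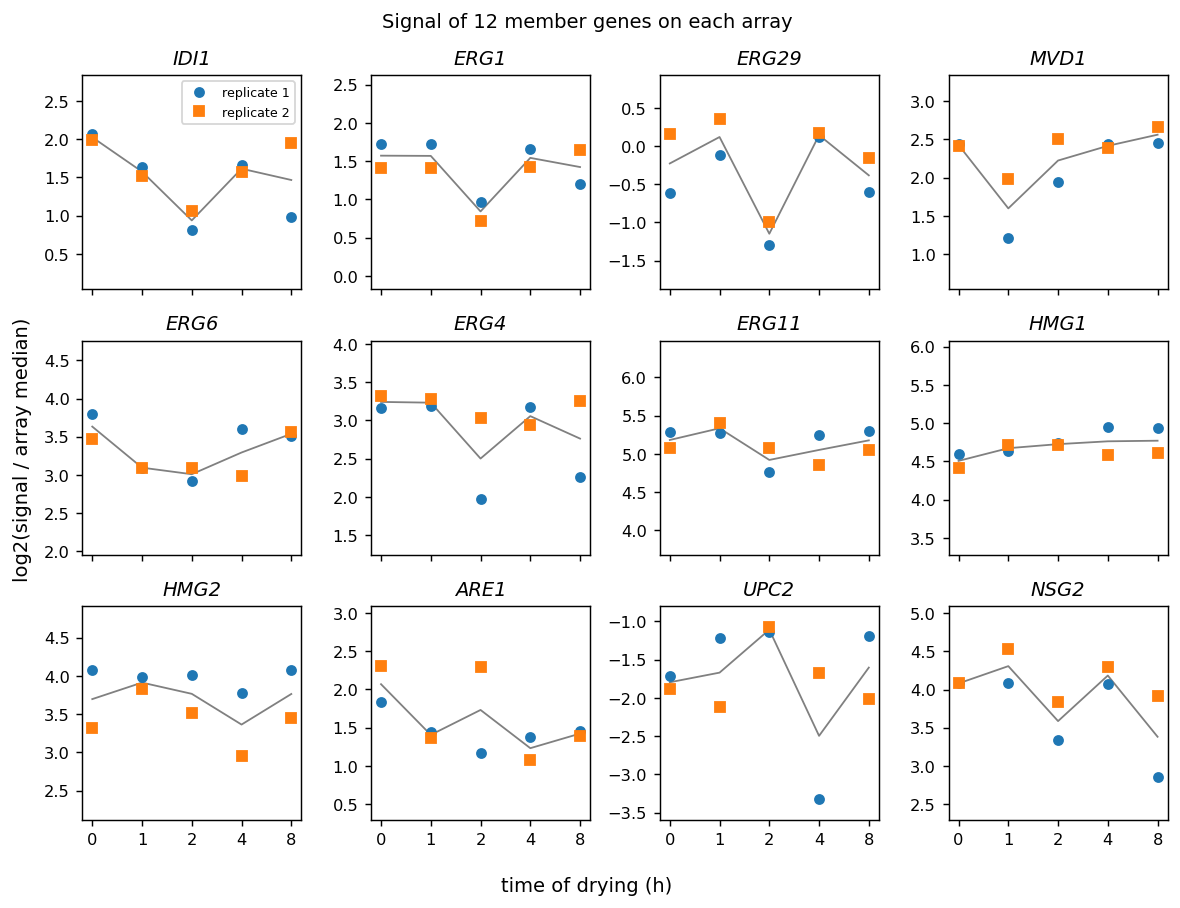
Level of 12 member genes, as log2 signal over the array median, at each time of drying, with a circle for replicate 1, a square for replicate 2 and a line through the means; the vertical axis spans the same number of log2 units in each panel and the time axis is evenly spaced. ERG1 and ERG29 are lowest on both arrays of 2 h, IDI1 is low on these and on replicate 1 of 8 h, ERG4 is low only on replicate 1 of 2 and 8 h, and HMG1 and ERG11 stay within 0.53 and 0.63 log2 units.

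Sterol esterification, which stores sterols in lipid droplets, is carried out by the acyltransferases ARE1 and ARE2, and in yeast ARE1 is the form favoured when haem is short. ARE1 stood at 1.83 and 2.31 at 0 h, 1.45 and 1.37 at 1 h, 1.16 and 2.30 at 2 h, 1.38 and 1.08 at 4 h and 1.46 and 1.39 at 8 h. Apart from replicate 2 of 2 h, every dried array of ARE1 lay below both 0 h arrays. The change was -0.66 ± 0.33 at 1 h (adjusted p = 0.388), -0.84 ± 0.33 at 4 h (adjusted p = 0.326, 95% interval -1.53 to -0.14) and -0.65 ± 0.33 at 8 h (adjusted p = 0.561). ARE2 stood at 1.00 and 0.74 at 0 h, 0.75 and 0.84 at 1 h, 0.31 and 0.56 at 2 h, 0.84 and -0.33 at 4 h and 0.63 and 0.41 at 8 h. Its 2 h and 8 h pairs lay below the 0 h pair, and its largest change, -0.62 ± 0.34 at 4 h (adjusted p = 0.572), came from arrays that differed by more than that.

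Of the regulators, UPC2 was among the dimmest members. It stood at -1.71 and -1.88 at 0 h, -1.22 and -2.12 at 1 h, -1.14 and -1.07 at 2 h, -3.32 and -1.67 at 4 h and -1.20 and -2.01 at 8 h, where -3.32 is the floor. Both 2 h arrays lay above both 0 h arrays, with a change of 0.69 ± 0.69 (adjusted p = 0.752), while the change from 2 to 4 h, -1.39 ± 0.69 (adjusted p = 0.662), includes the array at the floor. Its intervals were the widest of the 31 genes, from -0.79 to 2.17 at 2 h. ECM22, its paralog, stood at 2.35 and 1.95 at 0 h, 2.34 and 2.28 at 1 h, 2.10 and 1.69 at 2 h, 2.53 and 1.94 at 4 h and 2.01 and 2.62 at 8 h, and each dried pair overlapped the 0 h pair.

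NSG1 and NSG2 are the yeast counterparts of mammalian INSIG proteins, and Nsg1 stabilises the Hmg2 protein. NSG1 stood at 2.82 and 2.60 at 0 h, 2.69 and 2.68 at 1 h, 2.05 and 2.82 at 2 h, 2.74 and 2.68 at 4 h and 2.27 and 3.0 at 8 h. NSG2 stood at 4.08 and 4.08 at 0 h, 4.08 and 4.53 at 1 h, 3.33 and 3.84 at 2 h, 4.07 and 4.29 at 4 h and 2.85 and 3.91 at 8 h. NSG2 was below both 0 h arrays on all 4 arrays of 2 and 8 h, whereas NSG1 was low only on the dim replicate 1 of these times. The change of NSG2 at 8 h was -0.70 ± 0.33 (adjusted p = 0.548) and was -0.17 without replicate 1 of 8 h.

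Time by time, the members' median change was lowest at 2 h with all arrays, an order that was not kept without replicate 1 of 2 h (-0.108 at 2 h against -0.109 at 1 h). At 1 h, 0 of 31 genes passed, where 2.61% of all genes did, and 1 had an unadjusted p under 0.05, where 13.9% of all genes did. The median change of the members was -0.11, against 0.04 for all genes. Both 1 h arrays lay below both 0 h arrays for 13 of the 31 genes, against 22.8% of all genes, and above them for 3, against 29.4% of all genes. The late enzymes had a median of -0.27 at 1 h, with 5 of 5 below 0, the mevalonate enzymes -0.12 with 7 of 9 below 0, and the regulators 0.14 with 3 of 4 above 0. Over all members 21 of 31 were below 0 at 1 h, against 46.8% of all genes.

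At 2 h, 0 of 31 genes passed, against 1.51% of all genes. An unadjusted p under 0.05 was found for 7, all lower, where 7.12% of all genes were lower at that threshold and 13.1% passed it in either direction. The 7 were IDI1, ERG1, ERG29, ERG5, ERG6, ERG20 and ERG8, and 25 of the 31 members had a change below 0, where 54.5% of all genes did. Both 2 h arrays lay below both 0 h arrays for 13 members, against 24.4% of all genes, and above for 2, HMG1 and UPC2, against 18.6% of all genes. The median change was -0.31 for the members and -0.05 for all genes. By role the median was -0.54 for the late enzymes, -0.34 for the mevalonate enzymes, -0.39 for the esterification pair, -0.27 for the regulators, -0.23 for the enzymes from lanosterol to zymosterol and -0.17 from squalene to lanosterol. The 5 oxygen-using enzymes ERG1, ERG11, ERG25, ERG3 and ERG5 were all below 0, with a median of -0.35 and a range of -0.73 to -0.08. Without replicate 1 of 2 h, 3 of these 5 were below 0 and their median was -0.11.

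The size of the 2 h difference rested on the dim replicate 1 of 2 h. On that array 25 of 31 members were below their own mean over the 10 arrays, with a median of -0.37, against -0.04 for all genes, and on replicate 2 of 2 h 16 were, with a median of -0.01, against -0.05. Without replicate 1 of 2 h the members' median change at 2 h was -0.11, with 18 of 31 below 0, and that of all genes was -0.05. Without replicate 2 of 2 h it was -0.45. By role, the medians without replicate 1 of 2 h were -0.21 for the late enzymes, -0.18 for the mevalonate enzymes, -0.04 for the esterification pair, -0.06 for the regulators, -0.08 from lanosterol to zymosterol and 0.04 from squalene to lanosterol. IDI1, ERG1, ERG29, ERG5, ERG6, ERG8 and ERG20 had both 2 h arrays below both 0 h arrays. They are the members with an unadjusted p under 0.05 at 2 h, a choice that favours such pairs, so this is not separate support. The part of array quality in the members' median was not tested.

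**Figure D3:**
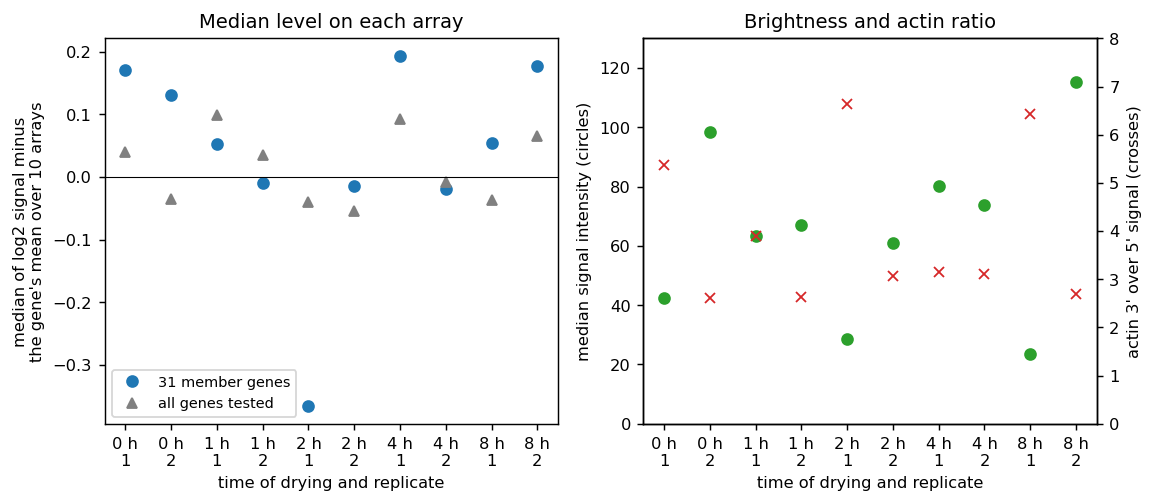
Left, for each array, the median over the 31 member genes (circles) and over all genes tested (triangles) of the log2 level minus the gene's mean over the 10 arrays; right, the median signal intensity (circles, left axis) and the 3' over 5' actin signal (crosses, right axis). The member median is lowest on replicate 1 of 2 h, at -0.37, which also has a low intensity and the highest actin ratio, while replicate 1 of 8 h, also dim, has a member median of 0.05.

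At 4 h, 0 of 31 genes passed, against 1.45% of all genes, and ARE1 alone had an unadjusted p under 0.05, where 10.7% of all genes did. The median change was -0.08, against 0.02 for all genes. Both 4 h arrays lay below both 0 h arrays for 7 genes, against 18.8% of all genes, and above for 2, ERG26 and ERG2, against 25.5% of all genes. The esterification pair had the lowest role median, -0.73.

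At 8 h, 0 of 31 genes passed and 0 had an unadjusted p under 0.05, where 0.951% and 9.26% of all genes did. The median change was -0.02, against 0.01 for all genes. Both 8 h arrays were above both 0 h arrays for 6 members, against 19.3% of all genes, and below for 6, against 16.9% of all genes. The 6 above were HMG1, MVD1, ERG26, ERG27, ERG2 and ERG5, with changes of 0.14 to 0.32, and the 6 below were ERG13, IDI1, ERG3, ARE1, ARE2 and NSG2, with changes of -0.70 to -0.20. ERG10, singled out after its values were seen, changed by -1.19 at 8 h when both dimmest arrays were left out. That setting leaves only replicate 2 at 8 h. With all arrays the change of ERG10 was -0.52 ± 0.35 (adjusted p = 0.711). It ran from -1.19 to 0.15, and its adjusted p from 0.0317 to 1, over 23 alternatives, and the value above 0 came without replicate 2 of 8 h.

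**Figure D4:**
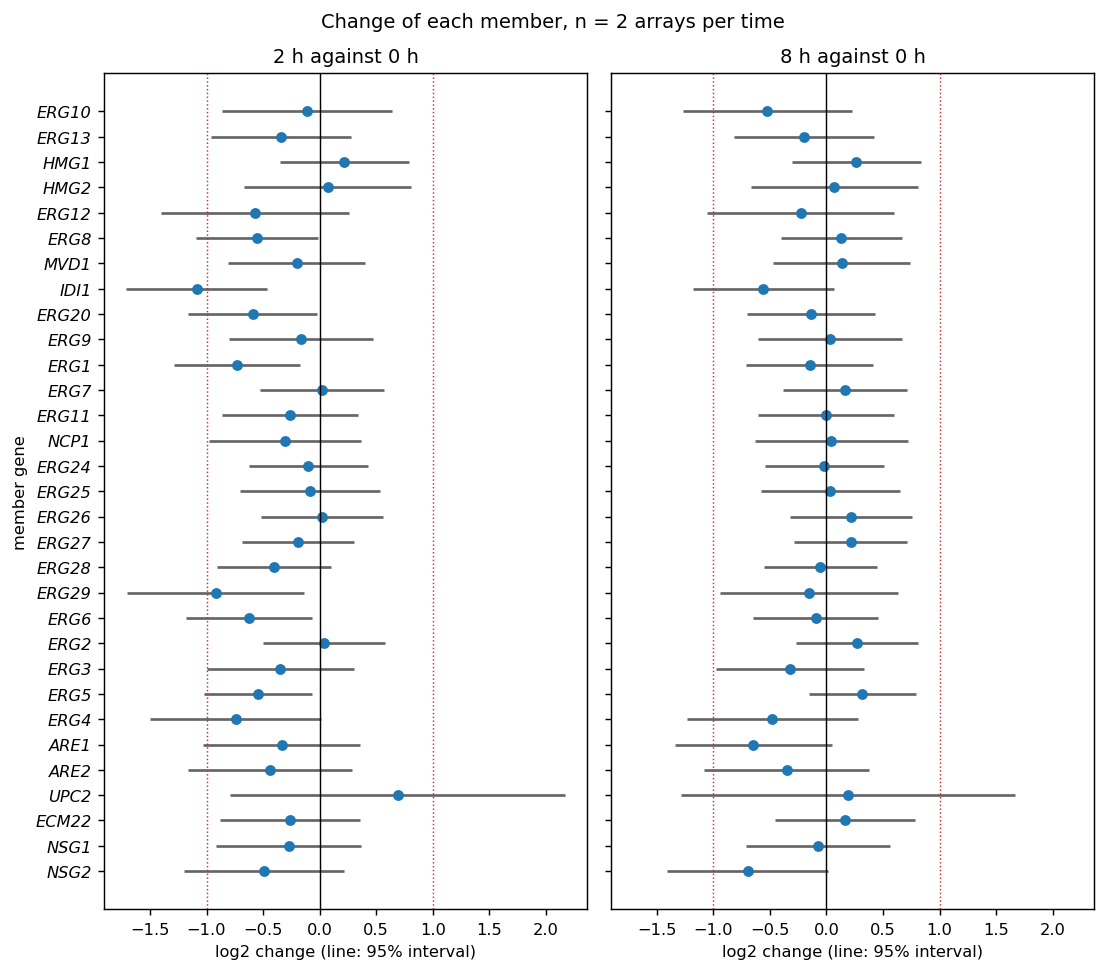
Change of each member gene at 2 h (left) and 8 h (right) against 0 h in log2 units, with the limma 95% interval as a line and n = 2 arrays per time; dotted lines mark a 2-fold change. At 2 h 25 of 31 points lie left of 0 and 17 intervals lie wholly inside the dotted lines, and at 8 h the points scatter on both sides and 23 intervals lie inside.

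The intervals give a range for each gene's change relative to the array median. They use a spread for each gene that is shared by all times. They can thus be too narrow at times whose replicates lay further apart. A 2-fold change in either direction lay outside the 95% interval for 24 of the 31 genes in the 1 h comparison, for 17 in that of 2 h, 22 in that of 4 h and 23 in that of 8 h. Over all genes the shares were 44.3%, 46.3%, 48.7% and 50.8% in the same order. For ERG11 this held at all 4 times, its 2 h interval being -0.86 to 0.34, and for HMG1 at all 4 times, with an upper end of 0.83 at most. The interval of IDI1 at 2 h, by contrast, reached from -1.71 to -0.47, and that of ERG29 from -1.70 to -0.14. The median SE of a member's change was 0.29, against 0.32 over all genes. Replicates of the same time differed by a median of 0.10 log2 units over the members at 1 h, 0.32 at 2 h and 0.28 at 8 h.

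From 1 to 2 h, 0 of 31 genes passed, where 1.85% of all genes did, and 5 had an unadjusted p under 0.05, where 14.5% of all genes did. ERG29, ERG1, IDI1 and NSG2 were lower at 2 h and MVD1 was higher. Both 2 h arrays lay below both 1 h arrays for 15 members, against 30.2% of all genes. The median change was -0.24 for the members and -0.12 for all genes, but -0.01 and -0.05 after quantile normalization and -0.02 and -0.03 after cyclic loess, so that the members stood no lower than all genes in these settings. ERG4 differed by -0.73 ± 0.35 (adjusted p = 0.363) in this step.

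From 2 to 4 h, 0 of 31 genes passed, and the same was true of all genes, 0% of which passed. At an unadjusted p under 0.05 there were 5 members, where 7.44% of all genes were found, and all 5 were higher at 4 h, where 5.59% of all genes were. The 5 were ERG29, ERG1 (0.70 ± 0.26), ERG8 (0.65 ± 0.25), IDI1 (0.68 ± 0.29) and ERG5 (0.52 ± 0.22), with adjusted p values of 0.508 to 0.660, and each was among the 7 with an unadjusted p under 0.05 at 2 h, a comparison that shares the 2 h arrays. The median of the members was 0.21 with all arrays and 0.05 without replicate 1 of 2 h, against 0.08 and 0.07 for all genes. From 4 to 8 h, 0 of 31 passed, against 0.0186% of all genes. Only NSG2 had an unadjusted p under 0.05 in that step (-0.80 ± 0.33, adjusted p = 0.608), where 7.46% of all genes did.

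**Figure D5:**
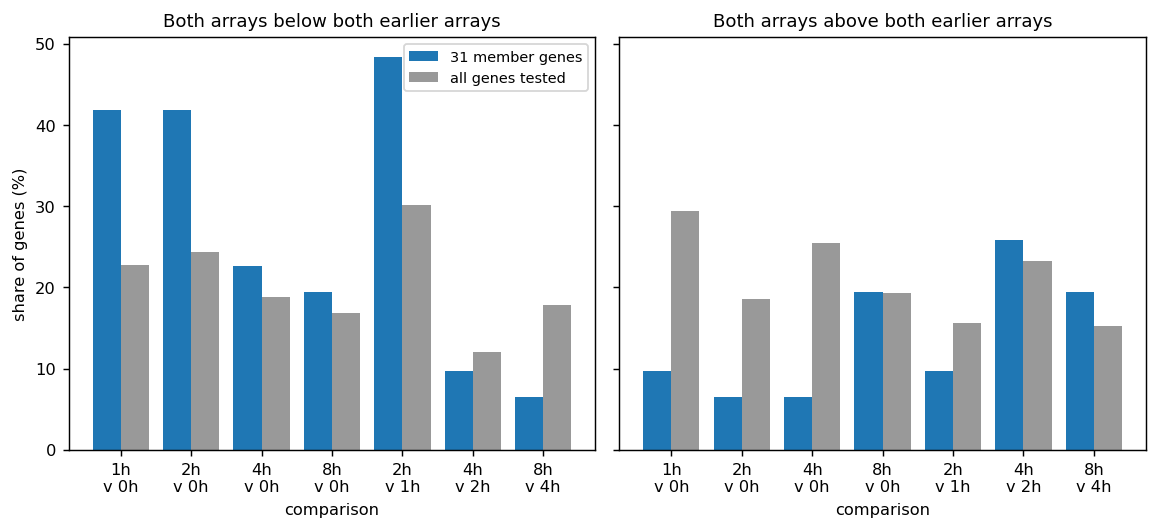
Share of genes, in percent, whose arrays at the later time both lay below (left) or above (right) both arrays of the earlier time, for 31 member genes (blue) and all 5365 genes tested (grey) in 7 comparisons, the first 4 of which share the 0 h arrays. Members were below 0 h in 41.9% at 1 and 2 h, and the shares at 8 h were 19.4% in each direction.

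Genes around the pathway were taken from lists drawn up by function, and in each the genes with the smallest F-test p are named. For comparison with each list, 2.61%, 1.51%, 1.45% and 0.951% of all genes passed at 1, 2, 4 and 8 h. In the list of sterol uptake and transport between membranes, 0 of 21 genes passed at any dried time. PDR16, a lipid transfer protein, was at -0.71 ± 0.26 at 2 h (adjusted p = 0.225). LAM1, a sterol transfer protein at membrane contacts, was at 0.39 ± 0.31 at 1 h (adjusted p = 0.655) and -0.45 ± 0.31 at 8 h (adjusted p = 0.711). For steryl ester hydrolysis and sterol acetylation 0 of 5 passed, the hydrolase YEH1 at -0.83 ± 0.29 at 1 h (adjusted p = 0.176) and the sterol acetyltransferase ATF2 at -1.59 ± 0.67 at 2 h (adjusted p = 0.314). The size for ATF2 is uncertain, since its 2 h arrays were dim, at -2.46 and -3.30, the latter next to the floor. For the electron donors and partners 0 of 3 passed, DAP1, a partner of Erg11, at 0.35 ± 0.23 and the reductase CBR1 at -0.43 ± 0.27 at 1 h (adjusted p = 0.564 and 0.538). The endoplasmic reticulum degradation list, which holds the ubiquitin ligases that act on Hmg2 and Erg1, had 0 of 16 past the threshold. At 1 h the ligases SSM4 and HRD1 were at 0.83 ± 0.23 (adjusted p = 0.0844) and 0.81 ± 0.34 (adjusted p = 0.293).

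Because sterol synthesis needs oxygen and haem, genes of low oxygen were also counted. Of 12 hypoxic genes tested, 1 was lower and 0 higher at 1 h, at 2 h and at 8 h, and 0 passed at 4 h. TIR1, a cell wall mannoprotein, fell at 1 h (-1.17 ± 0.25, adjusted p = 0.0186). CYC7, the hypoxic cytochrome c, fell at 2 h (-1.36 ± 0.26, adjusted p = 0.0138) and at 8 h (-1.53 ± 0.26, adjusted p = 0.0104). Of 9 regulators of sterol genes listed for oxygen or haem, TUP1 and CYC8 among them, 0 passed. SUT1 was nearest at 8 h (-1.95 ± 0.46, adjusted p = 0.0683) and MGA2 was at 0.97 ± 0.31 at 1 h (adjusted p = 0.136). An unadjusted p under 0.05 was found for 5, 1, 3 and 3 of these regulators at 1, 2, 4 and 8 h. For the hypoxic genes the counts were 2, 2, 3 and 2, and the shares of all genes were 13.9%, 13.1%, 10.7% and 9.26%. Of 8 haem synthesis genes 0 passed, the oxygen-using oxidase HEM13 at 1.01 ± 0.44 at 8 h (adjusted p = 0.514) and the decarboxylase HEM12 at -0.42 ± 0.23 at 1 h (adjusted p = 0.459).

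Other lipid branches gave 1 call. Of 23 sphingolipid synthesis genes, SUR2, the sphinganine hydroxylase, fell at 2 h (-1.28 ± 0.28, adjusted p = 0.0332), and 0 passed at 1, 4 or 8 h. Over all genes 1.51% passed at 2 h. The ceramidase YPC1 was at 0.50 ± 0.34 at 1 h (adjusted p = 0.57) and -0.74 ± 0.34 at 8 h (adjusted p = 0.535). From 1 to 2 h YPC1 changed by -1.21 ± 0.34 (adjusted p = 0.0881). Of 11 genes on other branches from farnesyl and isopentenyl diphosphate and 6 genes of acetyl-CoA supply 0 passed. The prenyltransferase subunit RAM2 was at 0.41 ± 0.23 at 8 h (adjusted p = 0.609), while CDC43 had an adjusted p of 0.238 at 8 h and is given no size of change, since replicate 1 of 0 h lay at the floor. The acetaldehyde dehydrogenase ALD6 had levels of 6.21 and 5.64 at 0 h and 5.18 and 2.59 at 8 h, a change of -2.04 ± 0.56 (adjusted p = 0.151) between pairs of which the 8 h arrays stood far apart. The acetyl-CoA synthetase ACS1 was at 0.79 ± 0.36 at 2 h (adjusted p = 0.370). Of 16 mating and sporulation genes, which stood for other kinds of yeast cell, 0 passed. AGA2, a mating agglutinin subunit, had its 0 h replicates at the floor, as had BAR1, the protease that cleaves alpha factor, its 0 h replicate 2 and its 8 h pair, so no size of change is given for them. The list's summed signal over the array median was 9.32 to 12.7 at 0 h, 12.7 to 23.6 at 2 h and 9.96 to 12.9 at 8 h. Within it, MFA1 stood at 3.75 on the dim replicate 1 of 2 h and at 1.74 on replicate 2. The list's median change at 2 h was 0.77, but this takes in AGA2, BAR1, STE6, STE18 and FUS1, each with 0 h values at the floor. The list's part in the members' values was not tested.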

How the data were processed

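Expression was measured on 10 arrays, 5 times of 2. The values deposited by the authors were linear signal intensities, which the submitters' processing notes link to GCOS, Affymetrix's array software; its version and summary method are not given in the sources used here. Ratios, per the labels, had been made after division by the 50th percentile, and those ratios were not used. Of 9335 probe sets, 60 controls were left out. Each array was divided by its median, floored at 0.1 of it and converted to log2, and probe sets with a mean under 0.2 of the median were left out. The brightest probe set stood for a gene, symbols coming from the platform annotation updated to R64. limma 3.58.1 in R 4.3.3 fitted group means to all 10 arrays, with eBayes and an intensity trend. The p-values are two-sided, adjusted by Benjamini-Hochberg over 5365 genes. The fit was checked on simulated data at 2 h against 0 h, with changes set in genes above the array median. Of 100 genes set to a log2 change of 1, 30 were called, and of 100 set to 2, 87 were. A 2-fold change can thus often go uncalled, and 0 calls do not mean no change. With arrays, their number limits the precision, and no detection calls were used. The members and lists were chosen with earlier results of these data known. Levels on every array are given for members past the threshold in any comparison, for the 2 members with the smallest p and the 2 with the largest change without overlap in each comparison, and for 13 members set by role; ERG10 is the exception. Alternatives are in the closing section. Replicate numbers were not taken to pair the arrays, since not every pair of times met the rule of a correlation over 0.1.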

Additional observations from a re-analysis of the deposited data

How the results depend on the processing

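The setting without both dimmest arrays left only replicate 2 at 2 h and at 8 h. In the main setting 0 of 31 members passed in each of the 7 comparisons and in the F test, and this held in all alternatives apart from the following. At 1 h against 0 h, 1 member (MVD1) passed with array weights and when arrays of those times alone were fitted. The weights were equal for both arrays of a time, from 0.579 at 8 h to 1.85 at 1 h. They thus did not set a dim array apart from its replicate. At 2 h against 0 h, 1 member (IDI1) passed without either replicate of 8 h and, chosen after seeing the data, without both dimmest arrays, so leaving out an array in turn gave 0 to 1. At 8 h against 0 h, 1 member (ERG10) passed without both dimmest arrays. In the F test 2 members passed without both dimmest arrays (ERG10 and ARE1) and 2 without replicate 2 of 8 h (IDI1 and NSG2), a range of 0 to 2 when each array was left out.

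The median change of the members moved by more than the spread of 0.138 between replicates in these settings. Without scaling it was -0.931 at 2 h, 0.171 at 4 h and -0.325 at 8 h against 0 h, -0.885 from 1 to 2 h, 1.09 from 2 to 4 h and -0.496 from 4 to 8 h, where the median of all genes moved alike (-0.674, 0.273, -0.291, -0.755, 0.953 and -0.58). With the 75th percentile it was -0.254 at 1 h (all genes -0.109) and -0.000446 from 1 to 2 h (all genes 0.125). From 1 to 2 h it was -0.00709 after quantile normalization and -0.0165 after cyclic loess. Without both dimmest arrays it was -0.108 at 2 h and 0.05 from 2 to 4 h. With each array left out in turn the median ranged from -0.161 to -0.0407 at 1 h, -0.45 to -0.108 at 2 h, -0.247 to 0.0112 at 4 h and -0.121 to 0.0679 at 8 h against 0 h. It ranged from -0.264 to -0.122 from 1 to 2 h, 0.05 to 0.369 from 2 to 4 h and -0.112 to 0.16 from 4 to 8 h.

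For single genes, 31 gene and comparison pairs gave 712 alternative values. Of these, 702 kept direction and side of the threshold, 6 came to pass it and 4 turned. In many settings the direction was fixed in advance. Array weights, the replicate block, no variance trend and leaving out an array of a time not compared left the change itself as it was. The count of 702 is thus no measure of how stable the directions are. The 4 that turned are as follows. ERG12 at 4 h was 0.337 with the mean of its probe sets, ERG27 from 4 to 8 h -0.0982 and MVD1 from 1 to 2 h -0.0142 without scaling, and ERG10 at 8 h 0.149 without replicate 2 of 8 h, against -1.19 without replicate 1. The cause was not tested. With the replicate number as a block, 0 members passed in each comparison, while over all genes the calls went from 81 to 124 at 2 h and from 51 to 96 at 8 h. The numbers were not taken to pair the arrays: deviations of same-numbered arrays correlated at -0.058 to 0.17 over 10 pairs of times, with 4 over 0.1, among them the 3 pairs of 0, 1 and 2 h. The F test was not run on pairs of times alone, and the stricter filter left 30 members, without UPC2. With 2 arrays a time, no group could be screened for an outlying array, and without detection calls the dim signals of UPC2, ERG12 and ERG29 cannot be set against background.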
